A study of Mus musculus with 12 samples.

Results

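Wild-type mice on a high fat diet were compared with wild-type mice on a regular diet, with every gene measured on 2 arrays per diet (a and b). These are 4 of the 12 arrays of the study, chosen by their labels. All 4 come from mice of strain C57BL/6 labelled WT, the diet with fat is given as 55% high fat diet, and no antibody or other agent is named for them. The sources used here do not give the length of feeding, the age or the sex of these mice. Nothing in the labels tells whether arrays a and b are separate animals, and p-values below therefore measure the spread between arrays only, which may be technical. The other arrays are 4 of mice labelled Smad3-/- on the same diets, whose strain is a mix of C57BL/6 with NIH Black Swiss, and 4 of obese mice that received a TGF-beta antibody or IgG. The arrays labelled Smad3-/- serve here to test whether a diet difference depends on the genotype label, which goes with the strain background. Some of their levels are also given beside those of wild type. Like the antibody arrays, they entered the choice of probe sets, the estimate of the spread and the alternative scalings. The antibody arrays served for nothing else.

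White fat cells store triglyceride, make part of their own fatty acids from glucose, and release hormones such as leptin and adiponectin. When the food holds much fat, they enlarge by taking up fatty acids, and in obese mice the enzymes that make fatty acids and answer to insulin are commonly low while macrophages gather around the cells. In male mice the gonadal fat pad lies against the epididymis, the duct where sperm mature, which has a wall of smooth muscle.

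The labels name no tissue. Adipoq, the gene of adiponectin, read 13.91 and 14.00 on the regular diet arrays and 13.73 and 13.78 on the high fat diet arrays, and Scd1, a desaturase abundant in fat cells, read 14.60 to 14.69, where levels are log2 values and the medians of the 4 arrays lay between 6.32 and 6.37. Defining transcripts of fat were thus near the top of the scale on both diets. Fabp4, the fatty acid carrier of fat cells, read 14.17 to 14.28 and was chosen after its values were seen. Markers of other tissues were present too and moved with the diet, as given below.

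The differences between diets were spread over many genes. Of 18194 genes, 1966 (10.8%) had a Benjamini-Hochberg adjusted p under 0.05 in limma, 854 (4.69%) higher on the high fat diet and 1112 (6.11%) lower. The median log2 difference, high fat minus regular diet, was 0.02 over all genes, and 55 genes were higher and 40 lower by at least 4-fold. Replicate arrays correlated at 0.994 on the regular diet and 0.993 on the high fat diet over genes, and SEs of called genes ran from 0.10 to 0.24. The 2 arrays of one diet lay wholly above or below those of the other for 8692 genes (47.8%), so that such a separation by itself marks little. Without regular diet array a the calls numbered 1296, 720 of them lower, and without high fat diet array a 691 were lower, with 713 higher. RNA quality was read from control probe sets, where a larger gap between the 3' and 5' ends of a transcript means more degraded RNA. The gap for Gapdh was 0.12 and 0.14 on the regular diet arrays and 0.36 and 0.50 on the high fat diet arrays, and that for actin 0.80 and 0.77 against 0.99 and 0.96. The part of RNA quality in the results was not tested.

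**Figure D1:**
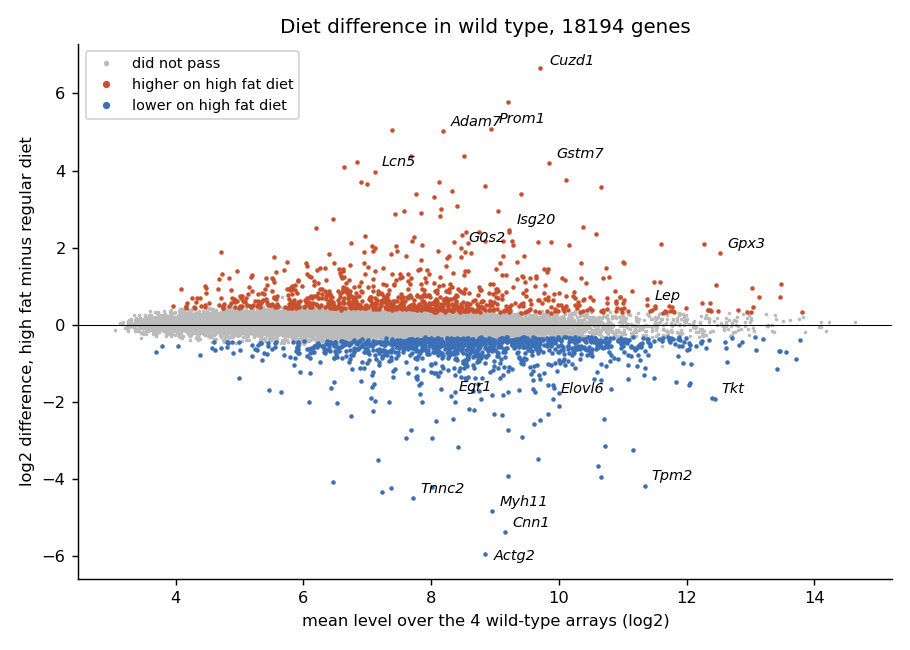
Log2 difference between diets in wild type (vertical axis, high fat minus regular diet) against the mean level over the 4 wild-type arrays (horizontal axis, log2). Each point is 1 of 18194 genes, coloured where limma's adjusted p was under 0.05. Called genes lie on both sides of 0, from Actg2 at -5.96 to Cuzd1 at 6.65.

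The largest differences upward were in genes of the epididymis and of epithelia. Cuzd1, a membrane protein made in secretory epithelia, read 6.47 and 6.28 on the regular diet and 12.98 and 13.08 on the high fat diet, a log2 difference of 6.65 ± 0.12 (SE, limma adjusted p = 2.83e-24) or 101-fold. Both regular diet arrays sat near the array median and both high fat diet arrays far above it. Adam7, a membrane protein of the epididymis that passes to sperm, read 5.90 and 5.46 against 10.56 and 10.84 (5.02 ± 0.16). Lcn5, a retinoid-binding lipocalin secreted into epididymal fluid, read 5.05 and 5.22 against 8.93 and 9.27 (3.97 ± 0.14), and Eppin, a protease inhibitor of the sperm surface, 6.32 and 6.24 against 9.92 and 10.04 (3.70 ± 0.13). Lack of overlap between the diets was a condition for being among the 12 highest. The rest of the 12 highest were Prom1, a membrane protein of epithelial protrusions, at 5.09, Spink10 at 5.05, Spint4 at 4.37, C4bp, a complement inhibitor, at 4.21, Gstm7, a glutathione transferase, at 4.20, Tmed6 at 4.09, Ptgds, a prostaglandin D synthase, at 3.76, and Glb1l3 at 3.70. A dimmer Gstm7 probe set did not pass, and the genes of this transferase family are close enough in sequence for probes to be shared.

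The epididymis and testis list had 15 of 26 measured genes higher and 0 lower, with a median of 1.57 against 0.02 over all genes. This list, like the others in this report, was drawn up with earlier results of these data known. The list counts and medians are therefore given as a description. The mean level of the list was 6.12 and 6.10 on the regular diet arrays and 7.78 and 7.84 on the high fat diet arrays. Genes of late sperm cells were among the higher members and were chosen after their values were seen, namely the protamines Prm1 and Prm2 at 3.01 and 2.86, the transition protein Tnp1 at 1.89 and the tail protein Odf1 at 1.83. Epididymal genes did not all move: Gpx5, a glutathione peroxidase of epididymal fluid, stood at 0.07 and Lcn8 at 0.31, and neither passed, both chosen after their values were seen. The epithelium list had 10 of 34 genes higher and 2 lower, with the keratins Krt18 and Krt8 up by 1.90 and 1.16 and Spint2, a membrane protease inhibitor, by 1.47. The 2 lower calls became 1 with any one array left out. Krt19, a keratin also made by the mesothelium, went the other way, from 9.65 and 9.50 to 7.18 and 7.07 (-2.45 ± 0.15).

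The largest differences downward were in contractile genes of smooth muscle. Actg2, the actin of visceral smooth muscle, read 11.60 and 12.05 on the regular diet and 5.81 and 5.92 on the high fat diet, a log2 difference of -5.96 ± 0.13 (limma adjusted p = 1.89e-22), or 62.2-fold lower. Cnn1 (calponin) read 11.93 and 11.78 against 6.42 and 6.51 (-5.39 ± 0.12), and Myh11, the smooth muscle myosin heavy chain, 11.48 and 11.28 against 6.40 and 6.69 (-4.83 ± 0.14). On the high fat diet these genes were near or below the array median. Acta2, the actin shared by vessel walls and myofibroblasts, fell from 13.24 and 13.46 to 11.36 and 11.53 (-1.91 ± 0.10) and was above the array median on both diets. Tpm2, Myl9 and Tagln, further parts of the contractile apparatus, differed by -4.17, -3.95 and -3.66. A dimmer probe set of Myh11 and 1 of 3 of Tpm2 did not pass.

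Of 25 measured smooth muscle and pericyte genes, 18 were lower and 0 higher, with a median of -1.74. The list averaged 9.92 and 10.01 on the regular diet arrays, 7.83 and 8.01 on the high fat diet arrays and 8.14 to 8.40 on the 4 arrays labelled Smad3-/-. The 2 regular diet arrays in wild type therefore stood apart from the other 6 of that experiment in this list. In such bulk samples, fewer cells of a type and less RNA per cell cannot be told apart. Mylk, the kinase that starts contraction, Smtn (smoothelin) and Des (desmin) differed by -3.24, -3.18 and -2.57, and Myocd, the coactivator that drives these genes, by -1.23, all chosen after their values were seen. The count was 17 to 19 with any one of the 4 arrays left out.

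The known control element of smooth muscle genes is the CArG box, bound by serum response factor. It was searched as CCNNNNNNGG with A or T at each N, which reads the same on both strands, in the 250 bases before each gene start (RefSeq, GRCm38.p6). It was found in 482 of 32851 such windows (1.47%) and in 1 of the 21 smooth muscle genes that had a window, Myl9. The stretch is shown because Myl9 is among the 12 lowest genes, at chr2:156775283-156775332 on the plus strand, with the box in capitals.
Myl9: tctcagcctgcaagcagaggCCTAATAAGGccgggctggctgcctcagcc
The box begins 161 bases before the start of Myl9. A window without a match says only that these letters are not in these bases.

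The remaining 12 lowest genes were of several kinds. Tnnc2, the calcium sensor of fast skeletal muscle, read 9.99 and 9.95 against 5.35 and 5.60 (-4.50 ± 0.12). Cited1, a coactivator that also marks beige fat cells, read 9.67 and 9.28 against 5.21 and 5.29 (-4.22 ± 0.15), and Mfsd2a, a carrier of lysophosphatidylcholine, 10.11 and 10.12 against 6.36 and 5.43 (-4.22 ± 0.19). Pcp4, a calmodulin-binding peptide, Sost, a secreted inhibitor of Wnt signalling, and Abcg2, an efflux pump, differed by -4.33, -4.09 and -3.91. Of 39 skeletal muscle genes 8 were lower and 2 higher, with a median near that of all genes, and 18 of the 39 lay under the array median on all 4 arrays. Beside Tnnc2, the list's lower members included Ckm (muscle creatine kinase), Mybpc1 and Acta1 at -2.74, -2.02 and -1.77. The highest member stood at 0.92, and 29 of the 39 were not called. A dimmer Ckm probe set stood at 0.12 and did not pass, nor did 1 of Mybpc1.

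**Figure D2:**
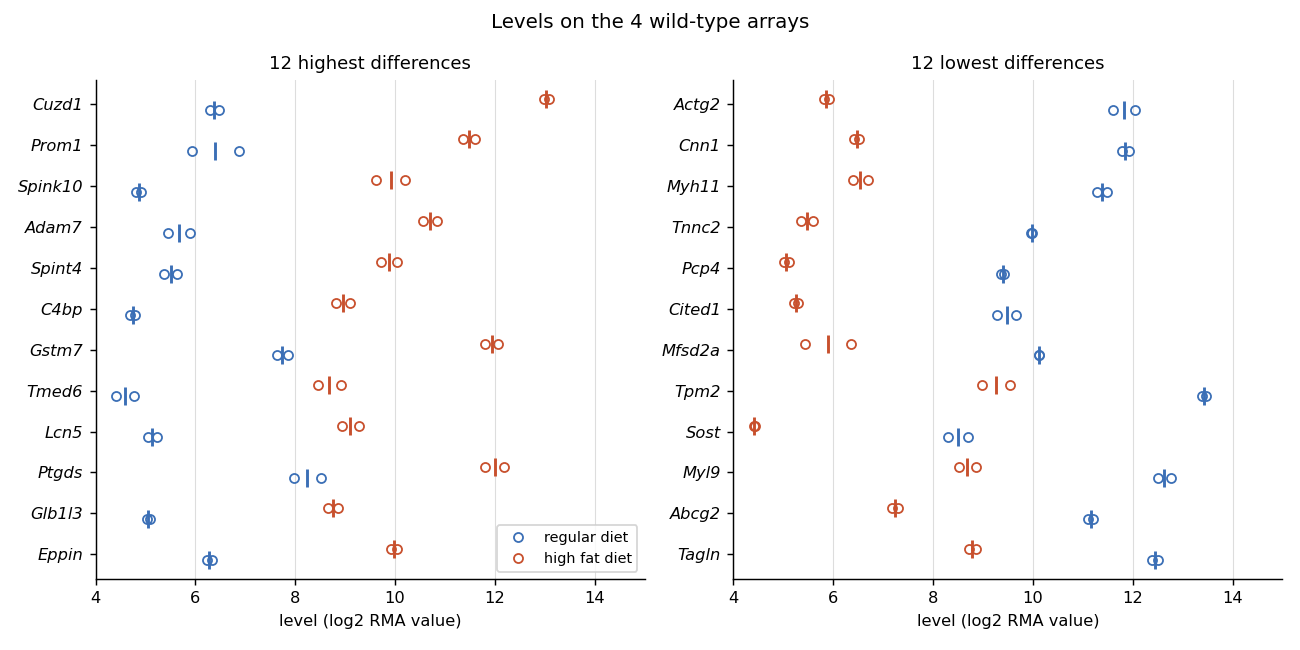
Levels (log2) on the wild-type arrays for the 12 highest differences between diets (left) and the 12 lowest (right). Circles are the 2 arrays of a diet and the short bar is their mean. These 24 genes were chosen among those for which the diets do not overlap. Several genes low on one diet, among them Cuzd1 and Actg2, are near the array median there.

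Beside these, the mesothelium list had 6 of 19 genes lower and 1 higher, and the immediate early list, read with the stress genes further on, was lower too. How much of any result below came with the markers of epididymis, smooth muscle or other tissues was not tested.

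Genes that mark enlarged fat cells gave a mixed picture. Of 19 measured, 4 were higher and 3 lower, with a median of -0.02, against 4.69% higher and 6.11% lower over all genes. Mest, an imprinted gene that tracks fat-cell growth, rose from 9.65 and 9.83 to 10.94 and 10.95 (1.20 ± 0.10, limma adjusted p = 3.89e-10), which is 2.30-fold. Trp53inp2, an autophagy protein of fat cells, rose from 10.61 and 10.58 to 11.11 and 11.53 (0.72 ± 0.11), though a dimmer probe set did not pass. Lep, the gene of leptin, read 11.01 and 11.24 against 11.53 and 11.74, a difference of 0.51 ± 0.11 (limma adjusted p = 0.00226) or 1.42-fold. The Lep call was lost without regular diet array a (0.40, limma adjusted p = 0.0958) and without high fat diet array b (0.41, limma adjusted p = 0.0563). Nnat and Npr3, which also rise as fat cells grow, stood at 0.16 and -0.19 and did not pass, though 2 dimmer probe sets of Npr3 passed at -0.48 and -0.81. Plagl1, an imprinted regulator, fell by 0.84, with dimmer probe sets at 0.11 and 0.0030 that did not pass.

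Some regulators of the fat cell were lower, while its hormones did not move together. Among 29 identity and adipokine genes, 10 were lower and 2 higher, with a median of -0.15, against 6.11% lower and 4.69% higher over all genes. Cebpb, an early regulator of fat-cell formation, read 10.63 and 10.75 against 8.91 and 9.33 (-1.57 ± 0.13). Pparg, the nuclear receptor at the centre of the fat-cell programme, fell from 10.62 and 10.45 to 9.42 and 9.78 (-0.93 ± 0.12), which is 1.91-fold lower. Cebpa, its partner, stood at -0.25 ± 0.10 (limma adjusted p = 0.121) and Adipoq at -0.20 ± 0.10 (limma adjusted p = 0.282), so neither passed. Retn, the hormone resistin, differed by -0.65 and was chosen after its values were seen. Pck1, which makes glycerol 3-phosphate for fat storage, was higher, at 10.82 and 11.22 against 12.16 and 12.11 (1.11 ± 0.12). A dimmer Pck1 probe set did not pass. Lep, given above, was the other higher member. With quantile normalization applied again, 6 members rather than 2 were called higher, and without regular diet array a or high fat diet array b 1 was.

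Many enzymes that build fatty acids were lower. Of 24 measured, 14 were lower and 4 higher, and the median was -0.41. Elovl6, which lengthens palmitate, read 10.91 and 10.84 on the regular diet and 8.83 and 9.07 on the high fat diet (-1.92 ± 0.11, limma adjusted p = 1.06e-13), 3.79-fold lower. Tkt, a transketolase of the pentose phosphate pathway, read 13.34 and 13.45 against 11.32 and 11.63 (-1.92 ± 0.11). Acly, which makes acetyl-CoA from citrate, fell from 12.75 and 12.89 to 11.24 and 11.29 (-1.56 ± 0.10). All 3 are bright on both diets. Acaca, the acetyl-CoA carboxylase that commits carbon to the pathway, fell from 12.76 and 12.87 to 11.19 and 11.42 (-1.51 ± 0.11). Fasn, the fatty acid synthase itself, read 14.15 and 14.16 against 13.25 and 13.28 (-0.89 ± 0.10), 1.85-fold lower. For all 5 enzymes both high fat diet arrays lay below both regular diet arrays. All but Fasn were named for the smallest p in the list, which largely fixes this. The diets were separated for 47.8% of all genes.

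Suppliers of the pathway were lower as well. Me1, which makes its NADPH, and Acss2, which activates acetate, differed by -1.49 and -1.04, chosen after their values were seen. Mlxipl, the glucose-sensing factor ChREBP, read 9.53 and 9.51 against 8.60 and 9.00 (-0.72 ± 0.11). Scd1 did not pass on its brightest probe set (0.07 ± 0.10), but a dimmer one gave -0.38 (limma adjusted p = 0.0106). A dimmer probe set of each of Elovl6, Acly and Acaca stood at 0.19, 0.0007 and 0.09, none past the threshold. Further Acly probe sets at -0.32 and -0.17 did not pass either. The remaining probe sets of Elovl6 and Acly were called lower. Srebf1, the sterol-regulated factor of lipid synthesis, was higher by 0.37 (limma adjusted p = 0.0272), a call lost without regular diet array a, regular diet array b or high fat diet array b (limma adjusted p = 0.099, 0.187 and 0.244). Of the 4 higher members, 1 was left without regular diet array a or high fat diet array b and 2 without regular diet array b, and 1 without an intensity trend in the test.

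Cholesterol and triglyceride genes were called in both directions. Hmgcs1, an early enzyme of cholesterol synthesis, rose from 9.48 and 9.62 to 11.00 and 11.28 (1.59 ± 0.13), 3.01-fold, and Insig1, the sterol sensor partner, by 0.68 ± 0.12. A dimmer Hmgcs1 probe set did not pass. They were 2 of 3 higher genes among 20 of cholesterol synthesis, with 2 lower, against 4.69% higher and 6.11% lower over all genes. The 2 lower calls fell to 1 or 0 with any one array left out. Of 18 triglyceride synthesis genes, 4 were lower and 2 higher, against the same shares over all genes. Gpd2, the mitochondrial glycerol phosphate dehydrogenase, read 9.54 and 9.48 against 7.98 and 7.97 (-1.53 ± 0.12), and Gpd1, its cytosolic counterpart, 11.43 and 11.51 against 10.66 and 10.74 (-0.77 ± 0.10). A dimmer probe set of Gpd2 did not pass, and 1 of Gpd1 stood at 0.23 and did not pass. The 2 higher calls fell to 1 or 0 with any one array left out.

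In the lipolysis list 4 of 21 genes were called, 2 in each direction, against 4.69% higher and 6.11% lower over all genes. Pnpla2 (ATGL) and Lipe (hormone-sensitive lipase), which cut stored triglyceride, differed by -0.08 ± 0.10 and -0.15 ± 0.10 and did not pass. Abhd5, the activator of ATGL, fell from 9.65 and 9.56 to 7.80 and 7.98 (-1.72 ± 0.12, limma adjusted p = 4.78e-12), although a dimmer probe set stood at 0.11 and did not pass. G0s2, the inhibitor of ATGL, rose from 7.58 and 7.35 to 9.36 and 9.57 (2.00 ± 0.14), 4.00-fold. Plin5, a coat protein that ties droplets to mitochondria, was higher by 0.75 ± 0.11. Ces1f, a carboxylesterase, was lower by 0.63 ± 0.11.

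Insulin signalling genes had 7 of 26 lower and 1 higher, against 6.11% lower and 4.69% higher over all genes. Slc2a4, the insulin-responsive glucose transporter GLUT4, read 10.38 and 10.41 against 9.19 and 9.51 (-1.04 ± 0.11, limma adjusted p = 2.46e-08), 2.06-fold lower. Pik3r1, the regulatory subunit of PI3 kinase, fell by 1.10 on the log2 scale and Tbc1d4, which holds GLUT4 inside the cell until insulin acts, by 0.84, each with a dimmer probe set that did not pass. Irs1, the main insulin receptor substrate, stood at -0.17 ± 0.12 and did not pass, while Irs3, a substrate of rodent fat cells, read 4.72 and 5.26 against 5.93 and 6.24 (1.10 ± 0.19), all under the array median. The 7 lower calls became 3 without regular diet array a and 4 without high fat diet array a. Of 10 genes of the adrenergic and natriuretic receptor list, 1 was lower, near the share over all genes, and it is no receptor. It was Pde3b, a phosphodiesterase that opposes lipolysis, at -0.40 (limma adjusted p = 0.0084), a call lost without regular diet array a, regular diet array b or high fat diet array a (limma adjusted p = 0.0778, 0.0582 and 0.146).

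**Figure D3:**
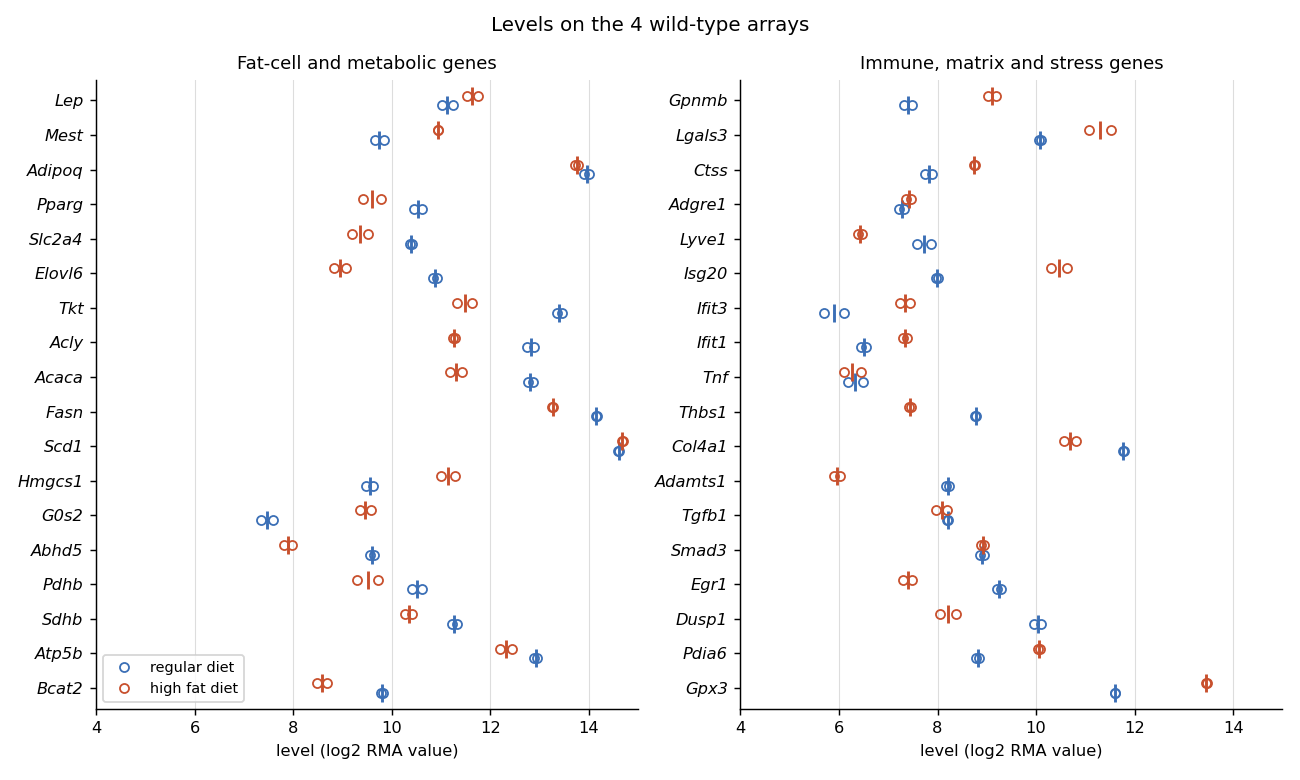
Levels (log2) of 36 genes of the fat cell, metabolism, immune cells, matrix and stress on the 4 wild-type arrays. Circles are the 2 arrays of a diet and the short bar is their mean. Elovl6, Tkt and Acly lie lower on the high fat diet, G0s2, Hmgcs1, Gpnmb and Isg20 higher, and the diets overlap for Tnf and Smad3.

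Many mitochondrial genes were lower. In the tricarboxylic acid cycle, which burns acetyl-CoA, 17 of 23 genes were lower and 0 higher, with a median of -0.51. Pdhb and Pdha1, subunits of pyruvate dehydrogenase, read 10.41 and 10.62 against 9.29 and 9.73 (2.005-fold lower) and 11.67 and 11.59 against 10.84 and 10.83 (-0.80 ± 0.10). Cs, the citrate synthase, fell from 11.06 and 11.23 to 10.29 and 10.59 (-0.71 ± 0.11). The count stayed between 12 and 17 with any one array left out.

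The respiratory chain and ATP synthase had 30 of 70 genes lower and 1 higher, with a median of -0.30. Sdhb, the iron-sulfur subunit of complex II, read 11.32 and 11.22 against 10.27 and 10.42 (-0.93 ± 0.11). Atp5b, the catalytic subunit of ATP synthase, fell from 12.89 and 12.95 to 12.19 and 12.43 (-0.61 ± 0.10), and Uqcrc2 of complex III by 0.59 ± 0.11. By complex, 14 of 30 genes of complex I were lower, 2 of 4 of complex II, 5 of 10 of complex III with cytochrome c, 1 of 11 of complex IV and 8 of 15 of the synthase. Complex IV had the median nearest 0, at -0.14, against -0.29 to -0.37 in the others, a grouping by gene symbol made after the values were seen. The count of 30 was sensitive to single arrays, with 16 lower without high fat diet array a, 17 without regular diet array a and 43 without high fat diet array b, and 19 without an intensity trend in the test. The 1 higher call was lost without regular diet array a or b or high fat diet array b.

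Fatty acid oxidation had 5 of 26 genes lower and 1 higher, against 6.11% lower and 4.69% higher over all genes. The lower count was 2 without an intensity trend, 0 without high fat diet array a, 1 without regular diet array a and 2 without regular diet array b. Acaa1b, a peroxisomal thiolase, was the higher one, from 9.07 and 8.95 to 10.19 and 10.34 (1.26 ± 0.12). Branched-chain amino acid breakdown, a source of acetyl-CoA in fat cells, had 6 of 22 genes lower and 0 higher. Its first enzyme, the transaminase Bcat2, read 9.82 and 9.78 against 8.49 and 8.69 (-1.21 ± 0.11), and Hsd17b10, a dehydrogenase of the isoleucine branch, fell by 0.63 ± 0.12.

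Ucp1, the uncoupling protein of heat-producing brown and beige fat, read 6.40 and 6.44 against 6.37 and 6.33, near the array median on both diets. Cidea, of the same list, read 7.27 and 7.06 against 7.46 and 6.94, above the array median. Neither passed, at -0.07 ± 0.11 and 0.04 ± 0.13. Of 29 brown and beige fat genes 5 were lower and 1 higher, against 6.11% lower and 4.69% higher over all genes. Their median difference was -0.03, and 8 of the 29 lay under the array median on all 4 arrays. Cited1, among the 12 lowest genes above, led the lower ones, and Slc27a2, a fatty acid transporter, was the higher one, from 5.76 and 6.03 to 7.10 and 7.39 (1.35 ± 0.14). The 5 lower calls became 3 without regular diet array a or when probe sets of a gene were averaged, and the 1 higher call became 2 without high fat diet array a.

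Macrophage genes as a list stayed near the background. Of 37 measured, 2 were higher and 3 lower, with a median of -0.02, against 4.69% and 6.11% of all genes. Adgre1, the surface receptor that defines mouse macrophages, read 7.22 and 7.33 against 7.37 and 7.47 (0.14 ± 0.11), and Itgax, the integrin CD11c of macrophages in obese fat, 7.71 and 7.52 against 7.85 and 7.85 (0.24 ± 0.12). Neither passed. Lyve1, a hyaluronan receptor of resident macrophages and lymph vessels, fell from 7.87 and 7.59 to 6.46 and 6.38 (-1.31 ± 0.12), and Cd14, the lipopolysaccharide co-receptor, from 9.12 and 9.02 to 8.16 and 8.32 (-0.83 ± 0.11). Cd68, a lysosomal glycoprotein of macrophages, was higher by 0.57 (limma adjusted p = 0.00781), a call lost without regular diet array b or high fat diet array b (limma adjusted p = 0.0762 and 0.102). The 2 higher calls became 1 without regular diet array a or b or high fat diet array b.

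Of 33 genes of the lysosome and of lipid-laden macrophages, 8 were higher and 3 lower, or 5 lower without high fat diet array b, against 4.69% and 6.11% of all genes. Gpnmb, a glycoprotein of lysosome-rich macrophages, read 7.31 and 7.47 against 9.03 and 9.19 (1.72 ± 0.13, limma adjusted p = 2.26e-11), 3.30-fold higher. Lgals3 (galectin 3) rose from 10.05 and 10.10 to 11.08 and 11.51 (1.22 ± 0.12) and Ctss, a lysosomal protease, from 7.90 and 7.75 to 8.74 and 8.76 (0.93 ± 0.11). Npc2, which moves cholesterol out of the lysosome, was higher by 1.05 ± 0.10, and Mmp12, the elastase of macrophages, by 0.93 ± 0.13. Dimmer probe sets of Gpnmb and Npc2 did not pass. Trem2, the lipid receptor of such macrophages, stood at 0.16 ± 0.12 and did not pass, and Acp5, an acid phosphatase, was lower by 0.72 and was chosen after its values were seen. Npc2 is also abundant in epididymal fluid, and 15 of 26 epididymis and testis genes were higher too. A link between them was not tested.

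Inflammatory mediators were called in both directions, more of them lower, as was so over all genes (6.11% lower and 4.69% higher). Tnf, Il6 and Saa3 differed by -0.06 ± 0.15, 0.10 ± 0.15 and 0.04 ± 0.15, and Ccl2, the chemokine that draws monocytes, by -0.31 ± 0.14, and none passed. Of 30 cytokine and acute phase genes, 6 were lower and 2 higher, with a median of -0.01. Ptgs2 (cyclooxygenase 2) fell from 7.49 and 7.19 to 6.19 and 6.20 (-1.14 ± 0.15), Ptx3, a soluble pattern receptor, by 0.95 ± 0.15 and Orm1, an acute phase glycoprotein, by 0.84 ± 0.11. Lcn2, a siderophore-binding lipocalin made by fat cells and by the epididymis, rose from 7.18 and 7.10 to 8.85 and 9.27 (1.92 ± 0.12). A dimmer Ptx3 probe set stood at 0.03 and did not pass, and a dimmer one of Ptgs2 at -5.45 did. The 2 higher calls became 1 with any one array left out. Of 28 chemokines 1 was higher and 2 lower, near the shares over all genes, with Ccl7 at -0.69 ± 0.15. The 2 lower became 1 without regular diet array a or b or high fat diet array a, and the 1 higher became 2 without high fat diet array a.

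Markers of lymphocytes and granulocytes gave 1 higher call in each list. Of 22 B and plasma cell genes 1 was higher and 3 lower. The counts were 1 and 2 of 24 T and natural killer cell genes, and 1 and 2 of 20 neutrophil and mast cell genes. Over all genes 4.69% were higher and 6.11% lower, so the higher counts lay near the background. The lower B cell count was 1 without regular diet array a or high fat diet array b. The lower T cell count was 1 without any array but high fat diet array a, and the 1 higher call, Ncr1, a receptor of natural killer cells at 0.49 (limma adjusted p = 0.0301), was lost with any one array left out (limma adjusted p from 0.0922 to 0.201). The lower neutrophil count was 0 without regular diet array b and 1 without any other array. Gata3, a factor of T cells that also restrains fat-cell formation, read 6.98 and 7.20 against 5.23 and 4.94, 4.00-fold lower (limma adjusted p = 1.10e-10). Cd52, a small surface antigen of lymphocytes and of epididymal epithelium, rose from 11.97 and 11.94 to 12.91 and 13.04 (1.02 ± 0.11), and Ltf (lactoferrin), of neutrophil granules and secretory epithelia, from 7.45 and 7.35 to 9.07 and 9.27 (1.77 ± 0.13). The epithelium list had 10 of 34 genes higher and 2 lower, and a link with Cd52 and Ltf was not tested.

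Of 33 interferon response genes 6 were higher and 1 lower (2 without high fat diet array b), with a median of 0.15, against 4.69% higher and 6.11% lower over all genes. Isg20, an RNA-degrading exonuclease, read 8.01 and 7.98 against 10.29 and 10.63 (2.47 ± 0.12, limma adjusted p = 3.36e-15), 5.54-fold. Ifit3 and Ifit1, which sequester foreign RNA, rose from 5.69 and 6.10 to 7.24 and 7.44 (1.45 ± 0.15) and from 6.56 and 6.44 to 7.30 and 7.39 (0.84 ± 0.13). Irf7, the factor that amplifies the response, read 7.15 and 6.64 against 7.81 and 7.79 (0.90 ± 0.14). The diets do not overlap in any of the 4, as for 47.8% of all genes. These 4 were named for the smallest p in the list, which largely fixes this.

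The interferon-stimulated response element was searched on both strands as GAAA, any 2 bases and GAAA again in the same 250 bases before each gene start. It was in 978 of 32851 windows (2.98%) and in 11 of the 26 list genes that had a window (42.3%). Ifit3 and Ifit1 are shown because both passed, and Igtp, an interferon-induced GTPase at 0.11 that did not pass, because it carries the element too and was chosen after its values were seen. The stretches lie at chr19:34583353-34583436, chr19:34640765-34640833 and chr11:58199502-58199551, all on the plus strand of GRCm38.p6, with the element in capitals (on the other strand in Ifit3 and Ifit1).
Ifit3: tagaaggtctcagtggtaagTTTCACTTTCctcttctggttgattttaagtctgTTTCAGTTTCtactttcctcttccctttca
Ifit1: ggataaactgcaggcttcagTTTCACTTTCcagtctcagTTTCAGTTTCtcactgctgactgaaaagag
Igtp: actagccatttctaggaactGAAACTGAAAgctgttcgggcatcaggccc
Ifit3 and Ifit1 each hold 2 copies and Igtp 1. Of the 11 genes with the element 3 passed, Ifit3, Ifit1 and Ddx60, a helicase induced by interferon at 0.47 (limma adjusted p = 0.0311). Ddx60 was chosen after its values were seen, and its call was lost with any one array left out (limma adjusted p from 0.0516 to 0.252). Isg20, with the largest difference of the list, was not among the 11.

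**Figure D4:**
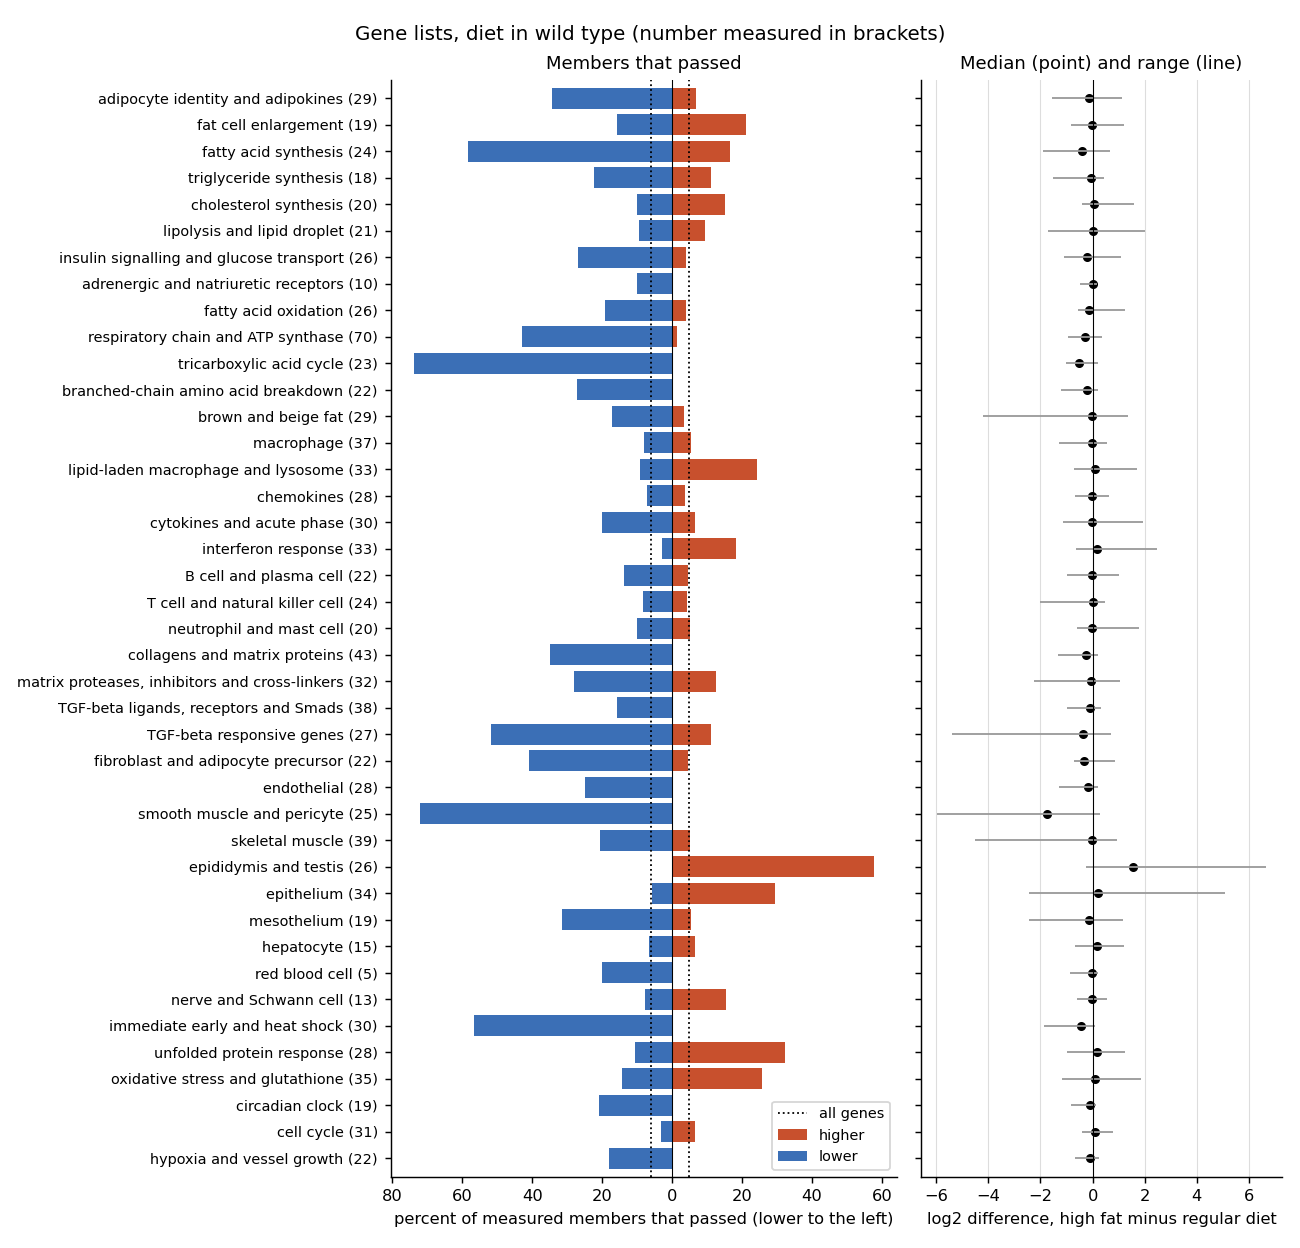
Left, the percent of each list's measured members with an adjusted p under 0.05 in limma, higher on the high fat diet to the right and lower to the left, with dotted lines at the shares over all genes (4.69% and 6.11%). Right, the median (point) and range (line) of the log2 difference in each list. The smooth muscle, tricarboxylic acid cycle, fatty acid synthesis and immediate early lists reach farthest to the left and the epididymis and testis list farthest to the right.

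Extracellular matrix genes were lower where they moved. Of 43 collagens and matrix proteins 15 were lower and 0 higher, with a median of -0.24, against 6.11% lower and 4.69% higher over all genes. The lower count depended on single arrays, falling without high fat diet array a and rising without high fat diet array b. Thbs1 (thrombospondin 1), which activates latent TGF-beta, read 8.77 and 8.79 against 7.47 and 7.42 (-1.33 ± 0.12). Col4a1, a basement membrane collagen, fell from 11.78 and 11.75 to 10.57 and 10.80 (-1.08 ± 0.10), and Sparcl1, a matrix glycoprotein of vessel walls, from 11.13 and 11.21 to 10.07 and 10.22 (-1.02 ± 0.10). By kind, 6 of 14 basement membrane genes and 4 of 9 fibrillar and type VI collagens were lower. Col1a1 stood at -0.26 ± 0.12 and did not pass. Col6a3, a collagen whose fragment endotrophin is released by obese fat, was lower by 0.46 (limma adjusted p = 0.00266), a call lost without high fat diet array a (-0.33, limma adjusted p = 0.0887).

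Among 32 proteases, inhibitors and cross-linkers, 9 were lower and 4 higher, against 6.11% lower and 4.69% higher over all genes. The lower count fell without high fat diet array a or either regular diet array. Adamts1, a protease of versican, fell most, from 8.24 and 8.17 to 6.02 and 5.90 (-2.25 ± 0.14), 4.74-fold. Timp4, an inhibitor abundant in fat, was lower by 0.76 ± 0.11 and Loxl1, a cross-linker of elastin, by 0.79 ± 0.11 with a dimmer probe set at 0.05 that did not pass. Lox, the enzyme that cross-links collagen, went the other way at 0.59 and was chosen after its values were seen.

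Neither Tgfb1 nor Smad3 passed. The ligand Tgfb1 read 8.20 and 8.21 against 7.97 and 8.19 (-0.12 ± 0.12), and Smad3, which carries the signal to the nucleus, 8.86 and 8.94 against 8.88 and 8.95 (0.02 ± 0.11). Of 38 ligands, receptors and Smads, 6 were lower and 0 higher, against 6.11% lower over all genes, among them Fst (follistatin), a trap for activin, at -0.97 ± 0.14, the ligand Tgfb3 at -0.61 ± 0.12 and the co-receptor Tgfbr3 at -0.56 ± 0.11, a dimmer probe set of which did not pass. Genes that respond to TGF-beta were lower in 14 of 27 cases and higher in 3, with a median of -0.36. Cnn1, Tpm2, Tagln, Tpm1 (-2.92 ± 0.11) and Acta2, 5 of its 6 lowest members, are also in the smooth muscle list. A dimmer Tpm1 probe set did not pass. Ccn2, a matricellular growth factor, and Id1, an inhibitor of differentiation factors, differed by -1.93 and -1.71, and Pmepa1, a feedback inhibitor of the pathway, by 0.72 in the other direction, all chosen after their values were seen.

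Precursor and vessel markers were lower in part, against 6.11% lower and 4.69% higher over all genes. Of 22 fibroblast and adipocyte precursor genes 9 were lower and 1 higher, with Islr and Dpt (dermatopontin), of the fibroblast matrix, at -0.72 ± 0.11 and -0.65 ± 0.10 and Anxa3, an annexin, at 0.86 ± 0.11. The 9 became 3 without regular diet array a and 5 without high fat diet array a, and 4 when probe sets of a gene were averaged. Of 28 endothelial genes 7 were lower and 0 higher, which became 4 without regular diet array a or high fat diet array a. Sox17, a factor of arterial endothelium, read 8.91 and 9.09 against 8.11 and 8.04 (-0.92 ± 0.11), Aqp1, a water channel, fell by 0.80 ± 0.10 and Flt1, a receptor for VEGF, by 0.71 ± 0.11, with a dimmer Flt1 probe set that did not pass. Vegfa, its ligand, was lower by 0.69 ± 0.11 and was 1 of 4 lower and 0 higher among 22 hypoxia and vessel growth genes, where the count was 2 without regular diet array a, regular diet array b or high fat diet array a.

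Many genes that respond within minutes to stress or growth factors were lower on the high fat diet. Of 30 immediate early and heat shock genes 17 were lower and 0 higher, with a median of -0.45, and the count was 14 to 16 with any one array left out. Egr1, a zinc finger factor, read 9.20 and 9.28 against 7.49 and 7.30 (-1.85 ± 0.11, limma adjusted p = 2.15e-13), 3.60-fold lower. Dusp1, a phosphatase of MAP kinases, fell from 9.95 and 10.11 to 8.06 and 8.37 (-1.81 ± 0.12) and Gadd45g, a stress sensor, from 9.16 and 8.83 to 7.30 and 7.35 (-1.67 ± 0.12). The list averaged 8.46 and 8.39 on the regular diet arrays and from 7.71 up to 7.87 on the remaining 6 of that experiment. As with smooth muscle, it was the regular diet arrays in wild type that stood apart. These genes also respond to how tissue is handled, which the sources used here do not give and which was not tested.

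Of 28 unfolded protein response genes, 9 were higher and 3 lower, with a median of 0.17, against 4.69% higher and 6.11% lower over all genes. Pdia6, a disulfide isomerase, rose from 8.85 and 8.79 to 10.05 and 10.08 (1.25 ± 0.11), Manf, a secreted stress factor, from 7.79 and 7.75 to 8.66 and 8.96 (1.04 ± 0.12) and Hspa5 (BiP), the main chaperone, from 10.57 and 10.60 to 11.27 and 11.36 (0.73 ± 0.10). Dimmer probe sets of Pdia6 and Hspa5 did not pass. Xbp1, the factor that drives secretory capacity, went the other way, from 13.10 and 13.13 to 12.13 and 12.16 (-0.97 ± 0.10). The 3 lower calls became 1 without regular diet array a. The epithelium list had 10 of 34 genes higher and 2 lower, and a link between the lists was not tested.

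Of 35 oxidative stress and glutathione genes, 9 were higher and 5 lower, against 4.69% higher and 6.11% lower over all genes. Gpx3, the secreted glutathione peroxidase, read 11.60 and 11.60 against 13.46 and 13.45 (1.85 ± 0.10, limma adjusted p = 4.35e-14), 3.61-fold, and Gstm1 and Gstm2, glutathione transferases, rose by 0.96 ± 0.10 and 0.87 ± 0.11. Mt2, a metal-binding metallothionein, fell from 14.08 and 13.89 to 12.72 and 12.94 (-1.16 ± 0.12). The higher count was 5 without regular diet array b and 6 without regular diet array a or high fat diet array b, and the lower count 2 without regular diet array a or b and 3 without high fat diet array a.

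Of 19 clock genes 4 were lower and 0 higher, against 6.11% lower over all genes, which became 1 without regular diet array a and 2 without high fat diet array a, and Nfil3, a repressor of evening genes, stood at -0.84 ± 0.15. Of 31 cell cycle genes 2 were higher and 1 lower. Rrm2, a subunit of ribonucleotide reductase, read 5.37 and 5.38 against 6.00 and 6.29 (0.77 ± 0.16), under the array median, and its dimmer probe sets did not pass. Hepatocyte, red blood cell and nerve markers gave 1 higher and 1 lower of 15, 0 and 1 of 5, and 2 and 1 of 13. Over all genes 4.69% were higher and 6.11% lower. The lower calls were Cyp2e1, a cytochrome of liver and fat, at -0.68 ± 0.10, Alas2, of haem synthesis in red cells, at -0.86 ± 0.11 and Pmp22, a myelin protein, at -0.62 ± 0.10. The higher calls were Fga at 1.22 ± 0.18, under the array median on both diets, Ncam1 at 0.55 ± 0.14 and Mal at 0.36 ± 0.12. Dimmer Ncam1 probe sets did not pass. Without regular diet array a, regular diet array b or high fat diet array b, the 2 higher nerve calls were 0 and the 2 higher cell cycle calls 1, and each was 1 without high fat diet array a. The 1 lower cell cycle call was lost without any array but regular diet array b.

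The same diets were then compared on the arrays labelled Smad3-/-, which share no array with the wild-type comparison. There 3150 genes (17.3%) were called, and 975 genes were called in both, which is 49.6% of the wild-type calls and 31% of the others. Of those 975, 207 had the same sign and 768 the opposite one, 479 lower in wild type and higher in the other genotype and 289 the reverse. Over all genes the log2 differences of the 2 genotypes correlated at -0.223, as a description, since genes are not independent replicates. The responses differed by the interaction test for 3413 genes (18.8%), and 1517 of the 1966 wild-type calls were among them. The strain background goes with the genotype label, so that the 2 cannot be told apart.

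The 24 genes of largest difference in wild type were chosen on one side of the interaction, so that their passing it, and its sign, are largely fixed by that choice and are given as a description. Cuzd1, up 6.65 in wild type, stood at -0.38 on the arrays labelled Smad3-/- (interaction 7.03, limma adjusted p = 8.01e-22), where it read 12.56 and 12.43 on the regular diet and 12.07 and 12.16 on the high fat diet. Of these 8 arrays, Cuzd1 was thus near the median only on the 2 wild-type regular diet arrays. Lcn5 rose by 3.97 in wild type and fell by 8.65 there (interaction 12.61), and Tnnc2 fell by 4.50 in wild type and rose by 4.59 there (interaction -9.08). Cnn1, at -5.39 in wild type, stood at -0.11 (interaction -5.28). The skeletal muscle list, with 8 lower in wild type, had 37 of 39 higher on those arrays, and the epididymis and testis list, with 15 higher in wild type, had 20 of 26 lower.

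Several fat-cell genes differed in the size or direction of their response. Lep rose by 0.51 in wild type and by 2.02 on the arrays labelled Smad3-/- (interaction -1.51), where its regular diet level was 7.28 as a mean of 2 arrays against 11.13 in wild type. Pparg and Slc2a4 fell by 0.93 and 1.04 in wild type and rose by 1.06 and 0.64 there (interaction -1.99 and -1.68). Mest rose by 1.20 in wild type and stood at -0.01 there (interaction 1.21). Fasn fell by 0.89 in wild type and stood at -0.03 there (interaction -0.86), and Acly fell in both, by 1.56 and 0.84 (interaction -0.72). Hmgcs1 rose in both, by 1.59 and 1.09, and the difference between them did not pass (limma adjusted p = 0.0637). By list, tricarboxylic acid cycle genes had 12 of 23 higher and 0 lower on the arrays labelled Smad3-/-, against 17 lower in wild type, and the interaction test passed for 18 of the 23.

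**Figure D5:**
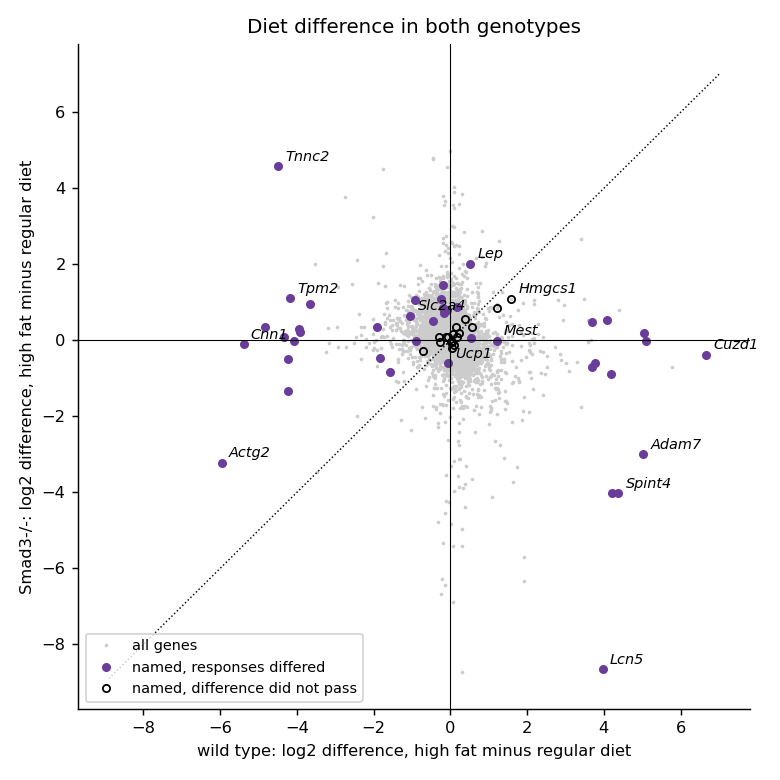
Log2 difference between diets (high fat minus regular) in wild type (horizontal axis) against that on the arrays labelled Smad3-/- (vertical axis). Grey points are all genes, filled circles are the extreme and preset genes whose responses differed by the interaction test, open circles those for which the difference did not pass, and the dotted line marks equal differences. Cuzd1 and Cnn1 lie near 0 on the vertical axis, and Lcn5 and Tnnc2 have opposite signs in the 2 genotypes.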

How the data were processed

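The authors' deposited values are on a log2 scale and were made with RMA and Partek, per the submitters' processing notes, from 6 ug of total RNA per array, per the labels' protocols (the sources used here give no versions). RMA is made to give arrays a like distribution, under which a change shared by most genes would not show. The deposited arrays did not all share one. Medians were 6.03 to 6.04 on the antibody arrays and 6.32 to 6.39 on the others. SDs over probe sets were 2.15 to 2.17 and 1.64 to 1.74. The antibody arrays thus stood on another scale. With only the 4 wild-type arrays fitted, on the same probe sets, 824 genes were called higher and 1016 lower. Of 45101 probe sets, 34958 named 1 gene through the platform annotation, 932 several and 9211 none. Each of 18194 genes was read from its brightest probe set, by the mean of the 12 arrays, and 9012 genes had more than 1. No detection call was used here, and 161 called genes lay under the array medians on all 4 wild-type arrays, where folds are compressed. No per-sample column was left out.

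A linear model with a mean per group was fitted to the 12 arrays together (limma 3.58.1 under R 4.3.3), and diet contrasts were moderated by eBayes, trend on. Tests were two-sided. Genes with a Benjamini-Hochberg p under 0.05, adjusted over every gene, are those "called" or "passed". The fit had 6 residual degrees of freedom. The number of arrays limits the precision. The fit was tested on simulated data. Members and the 41 gene lists were chosen with earlier results of these data known. Named genes are the 12 highest and 12 lowest called genes without overlap, leaving out symbols of unnamed gene models and of antigen receptor segments, the 4 members of each list with the smallest p, and 36 preset genes, of which 35 were measured, 7 higher, 8 lower and 20 not called. Alternatives were other eBayes settings, a filter on dim probe sets, other probe sets, centring, quantile normalization, subsets of arrays, array weights, the replicate letter as a block, dropping each array in turn and asking for 1.5-fold at least. The letters a and b were not treated as pairs. With 2 pairs, deviations of the wild-type arrays correlated at 0.0697. Between other groups the correlation ran from -0.1612 to 0.1690. With 2 arrays per group, these values cannot decide whether the letters pair the samples.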

Additional observations from a re-analysis of the deposited data

Results flagged for a closer look

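The response to the diet differed between wild type and the arrays labelled Smad3-/- for 3413 genes by limma's interaction test. The values that follow are interactions, the log2 difference between diets in wild type minus that on the arrays labelled Smad3-/-, each with an adjusted p under 0.05, and none of their causes was tested.

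Among genes of epididymis and epithelium and the rest of the 12 highest in wild type, Lcn5 stood at 12.61, Spint4 at 8.40, C4bp at 8.23, Adam7 at 8.03, Cuzd1 at 7.03, Prom1 at 5.11, Gstm7 at 5.09, Spink10 at 4.86, Eppin at 4.39, Ptgds at 4.35, Tmed6 at 3.57 and Glb1l3 at 3.20. These 12 were chosen for their rise in wild type, which is one side of the interaction, so the choice largely fixes the sign.

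For the 12 lowest in wild type the same holds. Contractile genes of smooth muscle gave -5.29 for Tpm2, -5.28 for Cnn1, -5.18 for Myh11, -4.61 for Tagln, -4.24 for Myl9 and -2.73 for Actg2, with -2.26 for Acta2 of the preset genes. Tnnc2 of fast skeletal muscle stood at -9.08, Pcp4 at -4.43, Abcg2 at -4.14, Sost at -4.06, Mfsd2a at -3.74 and Cited1 at -2.90.

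Among preset genes of the fat cell, Pparg gave -1.99, Slc2a4 -1.68, Npr3 -1.63, Lep -1.51, Cebpa -1.34, Adipoq -1.05, Lipe -0.95, Irs1 -0.90, Pnpla2 -0.89, Fasn -0.86, Nnat -0.72 and Acly -0.72, while Mest gave 1.21, Ucp1 0.54 and Sfrp5 0.47. Col6a3 stood at -0.97 and Egr1 at -1.38.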

How the results depend on the processing

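The count of 1966 genes called for diet in wild type ranged from 1296 to 1679 with any one of the 4 arrays left out, the higher count from 574 to 713 and the lower count from 691 to 1105; a group left with 1 array was taken to vary like the others. With at least 1.5-fold asked as well, 945 genes were called, 447 higher and 498 lower. With the replicate letter as a replicate block, 848 were higher and 1111 lower; centring gave 748 and 1143 and quantile normalization 1096 and 1117. The genes whose response differed between genotypes numbered 2735 to 3433 with any one array left out, from 3413. No named gene changed sign past the threshold under the fits listed in the methods, apart from other probe sets; signs of values that passed in neither setting were not compared. Of 162 called named genes, 31 lost the call with at least 1 wild-type array left out. Of the other probe sets of named genes, 41 lost the call in the same direction and 20 had the opposite sign: Plagl1 0.11 and 0.0030, Elovl6 0.19, Acly 0.0007, Acaca 0.089, Gpd1 0.23, Abhd5 0.11, Ptx3 0.029, Sdc1 0.080 and 0.14, Loxl1 0.049, Ckm 0.12, Ncam1 -0.0002, -0.17 and -0.38, Rora 0.014, 0.19 and 0.0007, Nr1d2 0.35 and Scd1 -0.38. Of these only Scd1 passed (limma adjusted p = 0.0106). The cause was not tested.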
